A study of Colocasia esculenta with 9 samples.

Results

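Leaf transcript levels of the taro cultivar Niue were compared with those of both other cultivars in the study, Palau 10 and Sam-07. The comparison used all 9 RNA-seq libraries, 3 of them from Niue, and was the difference between Niue and the average of the other 2 cultivar means. Of 18865 gene models tested, 222 set Niue apart in the same direction from each of the other cultivars, 156 of them higher and 66 lower in Niue. A gene model was said to be set apart when the 3-cultivar comparison gave an adjusted p under 0.05 and, in the same fit, Niue differed from Palau 10 and from Sam-07 with the same sign and an unadjusted p under 0.05 each. Both of those differences use the same 3 Niue libraries.

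Taro (Colocasia esculenta) is an aroid grown for its starchy corms and its leaves, and because it is propagated from vegetative pieces a cultivar is kept as a clone. Its cultivars are known to differ in corm and leaf quality and in their response to leaf blight, which is caused by the oomycete Phytophthora colocasiae. In a young leaf the photosynthetic machinery and the cuticle are still being built.

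The Niue group held replicates 2, 3 and 4 of its cultivar, and the other groups held replicates 1, 2 and 3 of Palau 10 (whose cultivar name is Ngerruuch) and of Sam-07 (Samasama). All plants were vegetative, raised from tissue culture and kept in potting mix for 8 months at 27 °C, 85% humidity and a 12 h day. No treatment, transgene or infection is named in any group. RNA came from 4 g of the 2 youngest leaves, and a drying time of 40 h is recorded for every library. The sources used here do not say whether the replicates were separate plants, so the p-values speak of the spread among these libraries, and part of it may be technical. Leaf identity could not be checked against marker genes, since no name or product comes with any gene model. Gene models are therefore given by identifier and place, on an assembly whose build is not named in the sources used here.

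Depth differed between the libraries. Niue had 15244913, 6083660 and 5468567 fragments (read pairs) assigned to gene models, and the other 6 libraries had between 8513507 and 18175384. The share of all fragments held by 5 very abundant gene models was 0.901%, 12.5% and 26.3% in replicates 2, 3 and 4 of Niue and 0.351% to 7.10% elsewhere, and 0 of the 5 were called in the comparison. By the chi-square of raw counts, 1 library in each cultivar stood apart from the other 2: Niue replicate 2, Palau 10 replicate 3 and Sam-07 replicate 2. The chi-square per degree of freedom of their counts was 115 to 260 against the other libraries of their cultivar, and 35.7 to 51.7 between those others. This measure grows with depth and includes the 5 abundant gene models. In a fit that weights libraries by their fit to the model (limma voom with sample weights), Palau 10 replicate 3 and Sam-07 replicate 2 received weights of 0.156 and 0.288, Niue replicate 2 received 0.861 and the other 6 received 1.28 to 2.59. A cultivar with no fragment of a gene model can still hold up to 3 fragments' worth, which is 0.114 CPM (fragments per 1000000, scaled by TMM) in Niue, 0.0651 in Palau 10 and 0.0770 CPM in Sam-07. These limits and the intervals given further on cover counting error only. Fragments that mapped to several places were not counted, and a level of 0 is therefore no evidence that a gene is unexpressed or absent from the genome.

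Niue differed from the average of the other cultivars in 316 gene models (edgeR's quasi-likelihood test, adjusted p under 0.05), which is 1.68% of those tested. Of these, 242 were higher in Niue (1.28% of those tested) and 74 lower (0.392%). The 156 gene models set apart with a higher level in Niue made up 0.827% of those tested, and the 66 set apart with a lower level 0.35%. The remaining 94 called gene models did not separate Niue from both others. Among these 94, Niue differed with p under 0.05 from Palau 10 alone in 51 and from Sam-07 alone in 34, and in the last 9 it differed from both with opposite signs. The total of 316 was 207, 185 and 166 without Niue replicates 2, 3 and 4, and 809 without both Palau 10 replicate 3 and Sam-07 replicate 2. Most of the 94 were higher in Niue, 86 against 8 lower, and 32 of them had no fragment in Palau 10 and 17 none in Sam-07. At the threshold, the last gene model inside had an adjusted p of 0.0499 with 1.18, 0 and 0.675 CPM in Niue, Palau 10 and Sam-07. The first one outside had an adjusted p of 0.0517 with 1.39, 1.26 and 0 CPM.

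The size of the difference varied widely among the 222. The median size was 4.25 on the log2 scale as fitted, against 0.27 over all tested gene models. The test that chose the 222 uses this difference, so a larger median among them was built in. With each cultivar that had no fragment set at its limit of 3 fragments, which concerned 70 of the 222, the median was 3.93, and it was 4.00 for the gene models higher in Niue and 3.22 for those lower. The step from Niue to the nearer of the other 2 cultivars, computed from cultivar means in the same way, had a median of 2.94 on the log2 scale. This step was at least 4-fold in 142 gene models, and under 2-fold in 24. All 3 Niue libraries lay above or below all 6 others in 216 of the 222. Over all tested gene models they lay above in 2.84% and below in 2.47%. The test that chose the 222 uses these same values, so the high share among them is a description.

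**Figure D1:**
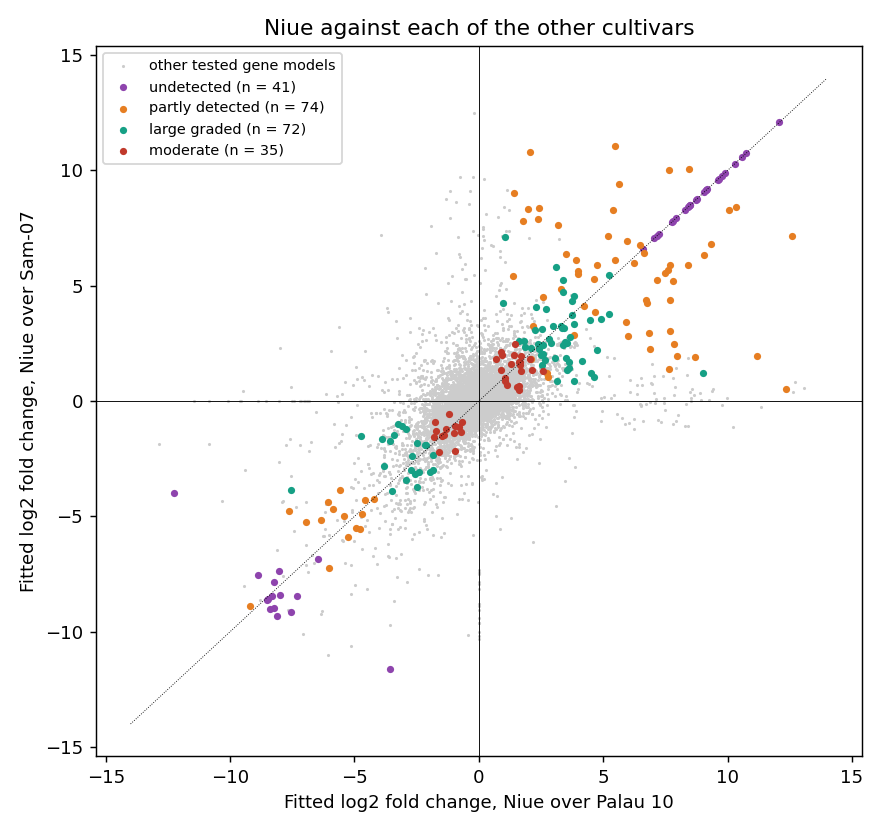
Each point is a tested gene model, with the fitted log2 fold change of Niue over Palau 10 on the horizontal axis and of Niue over Sam-07 on the vertical axis; colours mark the 222 set apart in 4 classes, grey points are the rest, and the dotted line marks equal folds. The 35 moderate gene models sit close to the grey cloud, whereas the 26 seen in Niue alone lie far out on the dotted line and the 15 not seen in Niue scatter around it, with fitted values that are no bounds. The axes share the Niue libraries.

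Palau 10 and Sam-07 also differed from each other more often among the 222 than among the tested gene models as a whole. In 26 of the 222 neither had a fragment, which leaves 196 to compare. Their fitted levels lay within 2-fold of each other in 93 of the 196 (47.4%), against 86.6% of all tested gene models with a fragment in either cultivar. Computed from cultivar means, with a cultivar without a fragment at its limit, they lay at least 8-fold apart in 25, and in 17 of these both had fragments. The difference between Palau 10 and Sam-07 was itself called in 31 of the 222 (edgeR, adjusted p under 0.05), against 327 of all 18865, or 1.73%. Among the 156 higher in Niue, Sam-07 came nearer to Niue than Palau 10 in 75 and Palau 10 in 55, and both were at 0 in the other 26. Among the 66 lower in Niue, Palau 10 had the higher mean in 31 and Sam-07 in 35. The rule asks for 1 direction against each cultivar and so takes part in these counts. Low levels take part as well, since a few fragments can then set the fold. At least 1 CPM in all 9 libraries was reached by 26.6% of the 222, against 79.1% of those tested.

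**Figure D2:**
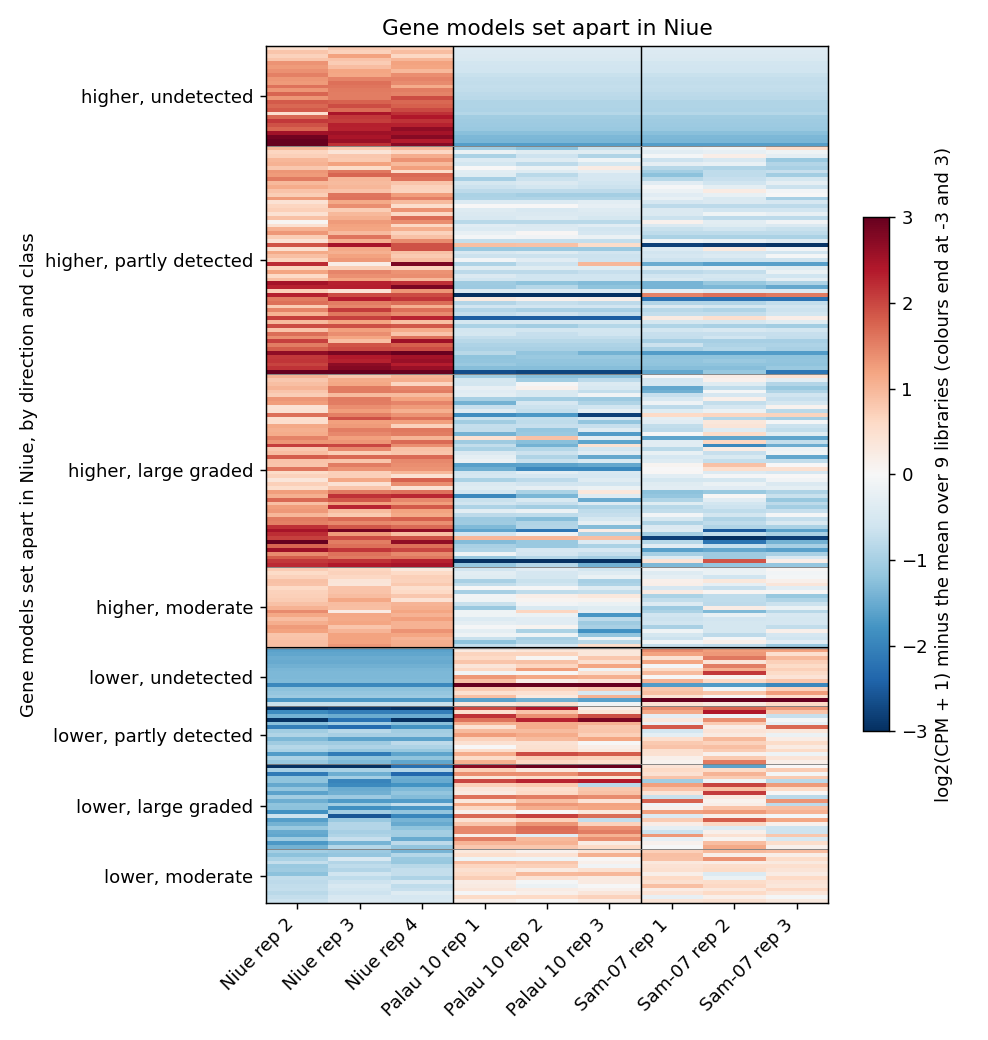
Rows are the 222 gene models set apart in Niue, grouped by direction and class, and columns are the 9 libraries; colour gives log2(CPM + 1) minus the mean over the 9 libraries, with the scale ending at -3 and 3. The rows were chosen on these values, so the contrast of the 3 Niue columns with the other 6 is built in; what the rows add is that in some of them 1 of the other cultivars lies much further from Niue than the other does.

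The 222 fell into 4 classes. In 41 the lower side had no fragment at all, 26 of them seen in Niue and in neither other cultivar, and 15 seen in both other cultivars and not in Niue. A further 72 had a fragment in every library and a difference of at least 4-fold, 50 higher and 22 lower in Niue. The 35 moderate gene models had at least 1 CPM in every library and a difference under 4-fold, 21 higher and 14 lower. The difference in these limits is that of the 3-cultivar comparison. Against 1 cultivar alone, some large graded gene models differed by under 4-fold, and some moderate ones by more. The last 74 were partly detected. Of these, 71 lacked a fragment in some library, and 3 had a fragment everywhere but fell under 1 CPM somewhere with a difference under 4-fold. Per kilobase of summed exons, the median level on the higher side was 5.12 FPKM for the 26 gene models seen in Niue alone, 7.602 FPKM for the 50 large graded ones and 23.0 FPKM for the 21 moderate ones. For gene models lower in Niue the same medians were 3.76, 10.5 and 19.1 FPKM. The median over all tested gene models, averaged over the 9 libraries, was 9.60 FPKM.

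The gene models seen in Niue and in neither other cultivar are given first. All 26 tested gene models without a fragment in the other 6 libraries were among the 222. They passed the filter on low counts through Niue alone and therefore had to differ. Some other gene models higher in Niue, with few fragments elsewhere, also passed it through Niue alone. The level of the 26 in Niue ranged from 0.995 to 43.7 CPM, with a median of 4.32 CPM. Taro_024828 (3 exons, plus strand of TARO_scaffold_001423 from 63238 to 67526) had 97.8, 13.3 and 19.9 CPM in Niue replicates 2, 3 and 4 and 0 in the other 6 libraries. Its Niue libraries disagreed widely, with replicate 2 far above the other two. Its level in Niue, 43.7 ± 47.0 CPM (SD, n = 3), exceeded that in Palau 10 at least 671-fold and that in Sam-07 at least 567-fold, with an adjusted p of 0.018 in edgeR's test. Without Niue replicate 2 these bounds were 255-fold and 216-fold. Without Niue replicate 4 the adjusted p was 0.063, and over the 9 fits that each leave out 1 library it ranged from 0.017 to 0.063. Taro_003882 (4 exons, minus strand of TARO_scaffold_000102 from 3170 to 5080) had 25.5, 14.6 and 12.2 CPM in the Niue libraries and 0 elsewhere. Replicate 2 was again the highest Niue library. The Niue mean was 17.4 ± 7.07 CPM (SD, n = 3), at least 268-fold above Palau 10 and 226-fold above Sam-07 (edgeR adjusted p = 0.0030).

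In the opposite direction, 84 tested gene models had no fragment in Niue, and 15 of them were set apart from both other cultivars. Their mean over the other 2 cultivars ranged from 1.02 to 25.02 CPM, with a median of 3.73 CPM. Taro_040231 (4 exons, minus strand of TARO_scaffold_003863 from 51596 to 56818) had 2.68, 2.94 and 2.85 in Palau 10, 7.21, 6.32 and 6.09 in Sam-07 and 0 in the 3 Niue libraries. The libraries of each cultivar agreed closely, including Palau 10 replicate 3 and Sam-07 replicate 2. It was at least 24.7-fold lower in Niue than in Palau 10 and at least 57.3-fold lower than in Sam-07, with an adjusted p of 0.0012 in edgeR's test. Taro_029108 (3 exons, minus strand of TARO_scaffold_001917 from 113136 to 121881) had 25.1, 40.1 and 29.4 in Sam-07, but only 0.0623, 0.201 and 0.0664 in Palau 10 and 0 in Niue. Palau 10 held 5 fragments in all, and its mean of 0.110 CPM lies under the limit of 0.114 CPM for Niue, so these data give no fold between Niue and Palau 10. The gene model met the rule through a pairwise p of 0.034 against Palau 10 and was at least 276-fold lower in Niue than in Sam-07 (edgeR adjusted p = 0.0070 for the 3-cultivar comparison). It no longer met the rule without Niue replicate 2, Niue replicate 3 or Palau 10 replicate 2, and with all libraries thinned to the depth of the smallest its adjusted p was 0.14. With Niue set against the other 6 libraries as 1 group the adjusted p was 0.51. Its exons overlap those of another gene model, fragments on shared bases were not counted, and strand was not used.

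Large graded differences came next, in gene models with at least a fragment in every library. The 50 higher in Niue had a median fitted difference of 2.89 on the log2 scale and the 22 lower one of 2.59 in size. Taro_055297 (4 exons, minus strand of TARO_scaffold_012487 from 6611 to 9473) had 13.4, 15.3 and 16.1 CPM in Niue, against 0.374, 0.668 and 0.133 in Palau 10 and 0.206, 0.375 and 0.381 CPM in Sam-07. The Niue libraries lay close together and far above all 6 others, which had 2 to 10 fragments each. Those 6 were too low to meet the filter on low counts. This gene model was therefore tested only because of its level in Niue, as were those seen in Niue alone. The mean of 14.9 ± 1.38 CPM in Niue (SD, n = 3) was 38.1-fold that of Palau 10 and 46.6-fold that of Sam-07, with a fitted log2 difference of 5.34 (SE 0.39, edgeR adjusted p = 6.2e-04). Without Palau 10 replicate 2 the first ratio was 58.9. Taro_009558 (7 exons, minus strand of TARO_scaffold_000333 from 554127 to 559476) formed 3 steps, with 37.1, 38.4 and 42.2 CPM in Niue, against 10.5, 31.0 and 9.01 in Sam-07, and a single fragment in each Palau 10 library. Over pooled fragments Niue was 588-fold above Palau 10 (95% counting interval 201 to 2856). Against Sam-07 the ratio of means was 2.33 with a pairwise p of 0.020 in edgeR's test, and Sam-07 replicate 2 lay nearest to Niue. Without that library the ratio was 4.02. The 3-cultivar comparison gave 5.12 on the log2 scale (SE 0.43, edgeR adjusted p = 8.9e-04), and without Niue replicate 4, Sam-07 replicate 1 or Sam-07 replicate 3 the difference from Sam-07 no longer met the rule. With the other 6 libraries as 1 group the difference was 2.21 with an adjusted p of 0.66.

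Among gene models lower in Niue, Taro_030262 (4 exons, plus strand of TARO_scaffold_002068 from 175724 to 182413) also formed 3 steps. It had 0.518, 0.163 and 1.501 CPM in Niue, against 15.04, 2.95 and 11.04 in Sam-07 and 76.7, 91.6 and 210 CPM in Palau 10. No library of Niue reached the lowest of Sam-07, which was replicate 2. The mean was 13.3-fold higher in Sam-07 and 173-fold higher in Palau 10 than in Niue, or 28.5-fold and 370-fold without Niue replicate 4. The fitted 3-cultivar difference was -5.71 on the log2 scale (SE 0.84, edgeR adjusted p = 0.0093). Its adjusted p was 0.082 without Niue replicate 2 and 0.054 without Niue replicate 3, within a range of 0.0085 to 0.082 over the 9 fits, and 0.18 with the other 6 libraries as 1 group. Taro_052617 (2 exons, minus strand of TARO_scaffold_009055 from 12395 to 13643) had 0.129, 0.163 and 0.214 CPM in Niue, against 2.68, 1.74 and 1.13 in Palau 10 and 2.37, 2.29 and 2.79 CPM in Sam-07. Here the other cultivars were alike, and the Niue values rested on 4 fragments. Pooled fragments put Niue 12.3-fold below Palau 10 (95% counting interval 4.62 to 46.0) and 15.9-fold below Sam-07 (5.99 to 59.4), with an adjusted p of 0.0065 in edgeR's test. That value was 0.053 without Niue replicate 2, within a range of 0.0051 to 0.053, and 0.078 after thinning to the smallest library.

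**Figure D3:**
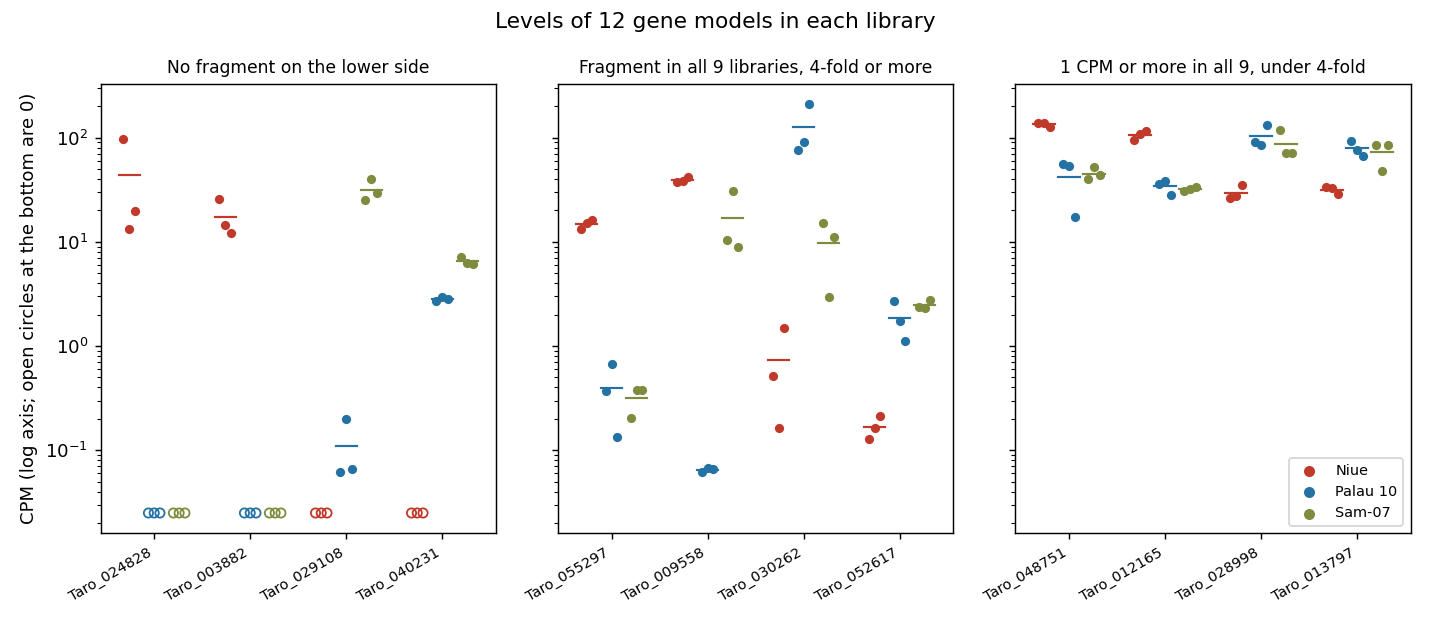
Levels of 12 gene models in each of the 9 libraries, in CPM on a log axis, with 3 points and a line at the mean for each cultivar; open circles at the bottom stand for 0 fragments. The panels hold gene models without a fragment on the lower side, large graded ones and moderate ones. That the 3 Niue points do not overlap the other 6 was required for a gene model to be named. In the right panel Niue means run from 29.5 to 134 CPM.

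The moderate differences concerned gene models that every library expressed at 1 CPM or more, as did 14916 of the 18865 tested. In the 3-cultivar comparison, the 21 higher in Niue differed by 0.93 to 1.96 on the log2 scale. Their median was 1.49, and 2 of them differed by less than 2-fold. The 14 lower in Niue differed by 0.80 to 1.90 in size, with a median of 1.29, and 3 of them by less than 2-fold. Libraries of a cultivar agreed more closely for these gene models than in general. Their median SD on the log2(CPM + 1) scale was 0.18 in Niue, 0.22 in Palau 10 and 0.20 in Sam-07, against 0.22, 0.37 and 0.31 over the 14916. The test that chose them uses this spread, so it is given as a description.

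Taro_012165 (23 exons, minus strand of TARO_scaffold_000472 from 423727 to 438434) had the smallest adjusted p of the 4 moderate gene models named here. It had 93.8, 108 and 116 CPM in Niue, against 36.1, 38.4 and 27.8 in Palau 10 and 30.7, 32.5 and 33.6 CPM in Sam-07. Both other cultivars stood at about the same level, and the Niue libraries lay well above them. The mean of 105.9 ± 11.3 CPM in Niue (SD, n = 3) was 3.10-fold that of Palau 10 and 3.28-fold that of Sam-07, a fitted log2 difference of 1.67 (SE 0.16, edgeR adjusted p = 0.0016). It was called in all 9 fits that leave out a library, with adjusted p from 0.0013 to 0.014. Taro_048751 (11 exons, minus strand of TARO_scaffold_006691 from 49302 to 52511) had 138, 137 and 126 CPM in Niue, against 55.2, 53.6 and 17.5 in Palau 10 and 39.8, 52.3 and 43.4 CPM in Sam-07. Palau 10 replicate 3 was the lowest library and widened the spread of its cultivar. The fitted difference was 1.62 (SE 0.32, edgeR adjusted p = 0.041). The call was kept in 1 of the 9 fits, the one without Palau 10 replicate 3, and the adjusted p ranged from 0.0021 there to 0.17. It was 0.076 with library size alone as the scaling, 0.067 among gene models at 10 CPM in 3 libraries and 0.13 against a 1.5-fold threshold.

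Of the moderate gene models lower in Niue, Taro_028998 (12 exons, minus strand of TARO_scaffold_001904 from 67550 to 73079) had 26.1, 27.6 and 34.7 CPM in Niue, against 90.3, 85.6 and 133 in Palau 10 and 119, 71.5 and 71.3 CPM in Sam-07. Every Niue library was below 35 CPM and every other library above 71 CPM. Palau 10 was 3.49-fold and Sam-07 2.96-fold above Niue, with a fitted difference of -1.69 (SE 0.26, edgeR adjusted p = 0.013). The call was lost without any 1 of the Niue libraries, at adjusted p of 0.10, 0.091 and 0.057 without replicates 2, 3 and 4. Taro_013797 (5 exons, minus strand of TARO_scaffold_000560 from 366070 to 369155) had 33.3, 32.7 and 28.7 CPM in Niue, against 93.2, 76.2 and 67.0 in Palau 10 and 84.6, 48.3 and 85.0 CPM in Sam-07. Sam-07 replicate 2 came nearest to Niue. The fitted difference was -1.26 (SE 0.23, edgeR adjusted p = 0.031). It was called in 2 of the 9 fits, those without Palau 10 replicate 3 and without Sam-07 replicate 2, and the adjusted p ranged from 0.0085 to 0.20. It was 0.060 after thinning to the smallest library, 0.055 among gene models at 10 CPM in 3 libraries and 0.14 against a 1.5-fold threshold.

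The 3 Niue libraries lay above all 6 others in 536 tested gene models (2.84%) and below all 6 in 466 (2.47%). With library size alone in place of TMM scaling these counts were 324 and 739, so the balance between higher and lower depended on the scaling. At least 1 CPM in every library was reached by 14916 of the 18865 tested gene models (79.1%). Of the 536, 267 had at least 1 CPM in every library, with a median difference of 0.67 on the log2 scale, and 197 of them differed by less than 2-fold. Of the 466, 330 did, with a median size of 0.78, and 214 of them differed by less than 2-fold. Among those 14916, 254 higher and 308 lower in Niue had no overlap and a 3-cultivar difference under 4-fold. Of the 254, 20 were set apart under the rule, and of the 308, 14 were. The total of 1002 without overlap, which has fewer values to clear when a library is dropped, was 2351 without Niue replicate 2, 1717 without Niue replicate 4, 2089 without Sam-07 replicate 2 and 3200 without both Palau 10 replicate 3 and Sam-07 replicate 2.

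The number of gene models set apart depended on which libraries were in the fit. Without both Palau 10 replicate 3 and Sam-07 replicate 2 it was 619, with 339 higher and 280 lower in Niue, and 214 of the 222 were among them. The moderate class grew most, from 35 to 295 gene models, 129 higher and 166 lower in Niue. The excess of higher over lower gene models was thus smaller in this fit, at 54.8% higher against 70.3% with all libraries. Leaving out a Niue library, which leaves 2, gave 153, 134 and 125 gene models without replicates 2, 3 and 4. In the moderate class these fits gave 11, 12 and 9, leaving out replicate 1 or 2 of Palau 10 gave 17 and 23, and leaving out replicate 1 or 3 of Sam-07 gave 17 and 20. The class rose to 81 without Palau 10 replicate 3. Of the 222, 97 were set apart in all 9 fits that leave out a library, 71 higher and 26 lower, and 7 of the 97 were moderate. Thinning every library to 5468567 fragments matched the totals but not the share held by the 5 abundant gene models. After it, 171 gene models were set apart, 117 higher and 54 lower, with 153 shared with the 222.

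**Figure D4:**
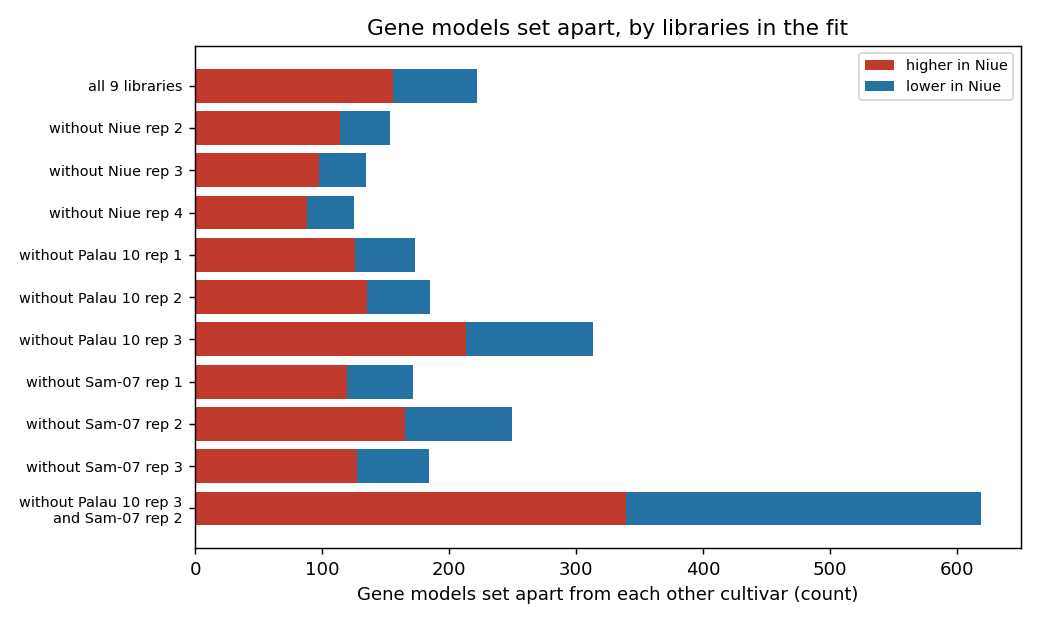
Bars give the number of gene models set apart in Niue, higher in red and lower in blue, with all 9 libraries, without each library in turn and without 2 libraries together. The count is 222 with all libraries, lowest at 125 without Niue replicate 4 and highest at 619 without both Palau 10 replicate 3 and Sam-07 replicate 2.

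Counts were not scaled by exon length and left out fragments on several gene models, so length and overlap can affect the filter and test. Position and structure were not otherwise used in choosing the 222. They lay on 202 scaffolds, 186 of which held a single one. For 123 of them a neighbouring gene model on the scaffold was also tested, and 17.1% of the 123 had a neighbour that was set apart too, against 1.25% of all tested gene models with a tested neighbour. These were 21 gene models in 11 neighbouring pairs. The members of a pair had the same direction in 9 pairs and the same strand in 7, and in 2 pairs they overlapped. Of the 3 scaffolds with 3 or more, TARO_scaffold_000154 held 4 among 37 tested gene models, 3 higher and 1 lower in Niue. TARO_scaffold_003196 held 3 among 5 tested and TARO_scaffold_005001 3 among 4, all of them higher in Niue. The 3 on TARO_scaffold_003196 formed both overlapping pairs, with members on opposite strands. Strand was not used in counting, and whether their levels are separate was not tested. The 222 were shorter than the tested gene models as a whole, with a median summed exon length of 1172 bp against 1501 bp. The median number of exons was 5 in both. A single exon was annotated in 7 of them (3.15%), against 9.88% of those tested. Exons overlapped those of another gene model in 13 (5.86%), against 4.89%.

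In 2 of the 11 pairs the members had opposite directions. The pair of these on a shared strand is described here, chosen after its values were seen. Taro_025866 (20 exons) lies on the minus strand of TARO_scaffold_001534 from 13085 to 28304, and Taro_025867 (6 exons) on the same strand from 28499 to 31251, with 194 bp between them. Taro_025866 had 73.8, 86.0 and 79.1 CPM in Niue, against 41.5, 51.0 and 56.1 in Palau 10 and 22.6, 25.8 and 19.9 CPM in Sam-07. Taro_025867 had 2.72, 4.88 and 2.14 CPM in Niue, against 41.2, 41.6 and 52.5 in Palau 10 and 21.1, 31.9 and 14.6 CPM in Sam-07. Niue was thus the highest of the 3 cultivars for Taro_025866 and the lowest for Taro_025867, without overlap in either, and Palau 10 was above Sam-07 in both. The fitted log2 differences were 1.24 (SE 0.16) and -3.30 (SE 0.37), with edgeR adjusted p of 0.0050 and 0.0030, and both were called in all 9 fits that leave out a library.

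The largest Niue mean in CPM among the 222 was that of Taro_015320 (3 exons, minus strand of TARO_scaffold_000656 from 248651 to 250626), also singled out after its values were seen. It had 433, 82.7 and 70.3 CPM in Niue replicates 2, 3 and 4. Palau 10 held 1 fragment in all, and Sam-07 had 1.34, 2.06 and 0.508 CPM. Every Niue library was above every other, but replicate 2 stood far above the other Niue libraries, as it did for Taro_024828. Its edgeR adjusted p was 8.9e-04 and between 0.0019 and 0.0085 in the 9 fits that leave out a library. In the 156 gene models higher in Niue, replicate 2 was the Niue library nearest to the others in 77, replicate 3 in 34 and replicate 4 in 45. In the 66 lower ones it was replicate 2 in 33, replicate 3 in 21 and replicate 4 in 12.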

How the data were processed

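Leaf RNA of 3 cultivars was sequenced in 9 libraries. The deposited values are raw counts of fragments per gene model, made per the file headers with featureCounts 1.4.6-p4 over exons. The recorded command set no strand, although the kit is stranded per the labels' protocols, and left out multi-mapping fragments and those on several gene models. The submitters' processing notes name bcl2fastq 1.8.4, Trimmomatic 0.33, STAR (written as 3.5.0a) and Subread 1.4.6.

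The test was edgeR 4.0.16 under R 4.3.3 (glmQLFit, glmQLFTest, two-sided, TMM factors, filterByExpr with a minimum count of 10 and total of 15), with cultivar as the only term over all 9 libraries and Benjamini-Hochberg adjustment over 18865 gene models. SE is the fitted log2 fold change over the root of its F statistic, and measures nothing where a cultivar has 0 fragments. The biological coefficient of variation was 0.439. FPKM is CPM per kilobase of summed exon length. A chi-square test found every pair of same-cultivar libraries to differ beyond sampling noise. The fit was also run on simulated counts with the same spread for all gene models and libraries. These libraries differ in quality, so that run does not show how well the moderate class is recovered here.

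Gene models were named by rule: in each of 3 classes (undetected, large graded, moderate) and direction, the 2 without overlap that had, class by class in this order, the highest mean CPM of the higher side, the largest fold change in size, or the highest mean CPM over the 9 libraries. Members, lists and alternatives were chosen with earlier results of these data known. Gene lists could not be matched and were not used. Alternatives included DESeq2 1.42.0 and limma 3.58.1.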

Additional observations from a re-analysis of the deposited data

How the results depend on the processing

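The 316 called, 222 set apart, 35 moderate and 1002 gene models without overlap stayed within 1.5 times under RLE factors, no filter, robust estimation, thinning and removal of the 5 abundant gene models, where each applied. With only gene models at 10 CPM in 3 libraries the counts were 86, 64, 19 and 453. DESeq2 gave 688, 478 and 139, and limma voom with quality weights 1010, 762 and 402. Of the 222, 220 were set apart under DESeq2 and 217 under limma voom. Niue against the 6 others as 1 group gave 137, 137 and 16, and an adjusted p under 0.01 gave 173, 133 and 8. Without Palau 10 replicate 3 and Sam-07 replicate 2 together the 4 counts were 809, 619, 295 and 3200. Leaving out each library in turn gave 166 to 414, 125 to 313, 9 to 81, and 1164 to 2351.

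An adjusted p under 0.05 in both pairwise comparisons left 113 set apart and 8 moderate, and adjusting the larger pairwise p left 72 and 4. The moderate count was also 20 with library size alone, 7 against a 1.5-fold threshold, 73 at an adjusted p under 0.10, 56 with a limit of 8-fold and 17 with 10 CPM in every library. Under a replicate block, counts became 1, 1 and 0, and all 12 named gene models lost their call. Only Niue has a replicate 4, so the block fits that library with a term of its own. It also leaves less of the data to estimate the spread. This fit therefore cannot show whether the replicate number matters. The sources used here do not say that the numbers pair libraries, so they were not taken as a pairing. Correlations of deviations from the cultivar means ran from -0.48 to 0.42 between same-numbered libraries and from -0.49 to 0.47 between others. Those ranges overlap, so they cannot show or exclude a pairing. Over 262 refits of the named gene models, 217 kept the call in the 3-cultivar comparison, 45 lost it and 0 changed sign. A kept call does not mean that the pairwise part of the rule was still met. Taro_029108 and Taro_009558 kept the call in all 9 fits that leave out a library and met the rule in 6. Depth limits the low levels: Niue, the shallowest cultivar, allows 0.114 CPM at 0 fragments. Causes of these changes were not tested.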
